A study of Blastobotrys raffinosifermentans with 8 samples.

Results

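The course of transcript levels in glucose medium alone was followed on 4 of the 8 arrays of the series. They hold total RNA of the dimorphic yeast Blastobotrys raffinosifermentans, strain LS3. The 4 arrays were chosen by their labels, which name 1% glucose as the only treatment, and no array from cells that received gallic acid entered the normalisation or any test. All cells grew overnight in a minimal medium (YMM) with glucose and nitrate (NaNO3), were spun down and moved to YMM-NaNO3 with 1% glucose, and were shaken at 30 °C. The early group consists of the arrays at 15 min and 30 min, and the late group of those at 2 h and 5 h. There was 1 array for each harvest time, so no harvest time had a replicate. Whether the 4 harvests came from separate cultures is not given in the sources used here, and a p-value therefore measures only the spread between these arrays. The 2 arrays of a phase are from different harvest times. The spread within a phase thus holds the change between these times, and part of it may be technical.

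Glucose is the preferred carbon source of most yeasts and represses many genes for the use of other carbon sources. Nitrate is taken up and reduced to ammonium before its nitrogen can enter amino acids. In Saccharomyces cerevisiae, a transfer to fresh medium is known to change transcripts of nutrient uptake, ribosome synthesis and stress defence within minutes, and many of these changes are transient. The arrays pair no locus tag with a gene name or a product, so the transcripts are given by locus tag. The letter after ARAD1 in a tag names the chromosome (A to D). A function is stated only for tags to which the study's text gives one.

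A level is the background-corrected, quantile-normalised spot intensity on the log2 scale, taken as the median over the probes of a tag. An offset of 50 was added to the corrected intensity before normalisation. A difference of 1 is therefore a 2-fold difference in intensity with the offset included, and folds of dim tags come out smaller than without it. Of 6160 tags on the array, 6074 were tested, each with 1 or more probes that stood well above background on 2 or more of the glucose arrays. The other 86 tags were well above background on 1 array (55 tags) or on none (31 tags). Levels of different tags depend on their probes and are not compared as amounts of RNA.

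The 4 arrays differed in how many spots gave a signal. From the first to the last harvest, 78.6%, 72.5%, 81.9% and 58.2% of yeast spots stood well above background. The 5 h array was the lowest of the 4 and the 2 h array the highest. The median intensity of the 10 labelled spike-in transcripts (log2, background-corrected but not normalised between arrays) lay between 7.98 and 8.48 and was lowest at 5 h. Repeated spots of a probe differed by an SD of 0.12 to 0.13 within an array, and by 0.17 to 0.24 where the level was at least 8. Saturation was not flagged for any yeast spot. The position of an array on the slide followed the harvest time, so position and time cannot be told apart. With 4 arrays in all, their number limits how precise any value here can be.

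Most tags tested kept a similar normalised level throughout. Of the 6074 tags tested, 3700 stayed within 0.5 log2 units over all 4 harvest times, and 150 spanned at least 2. Many tags were dim, and the offset makes their differences smaller. A share of 0.5 or more of the probes was well above background on all 4 arrays for 3677 of the 6160 tags. The count of tags within 0.5 log2 units was not repeated with another offset or signal. Across tags, levels at 15 min correlated with those at 30 min with Pearson's r = 0.907. The values against 5 h were 0.910 for 15 min and 0.916 for 30 min. The 3 values that involve the 2 h array were lower, namely 0.830 against 15 min, 0.847 against 30 min and 0.826 against 5 h. These are correlations across genes of single arrays, and genes are not independent replicates. The 2 h array was thus the least like the others. The SD of the difference between arrays was 0.53 to 0.57 for the pairs with the 2 h array and 0.39 to 0.41 for the other pairs. This array also had the most spots above background, and the part of that in the pattern was not tested.

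Late against early harvest asked which transcripts differed between the 2 phases of the culture by more than they moved within a phase. No tag passed limma's test at a Benjamini-Hochberg adjusted p of 0.05 in either direction, which is 0% of the tags tested. The lowest adjusted p was 1. At an unadjusted p of 0.05, 180 tags passed, 66 higher late and 114 lower late. This count was 278 without the 2 h array and 909 without the 5 h array, with no tag past the adjusted threshold in either case. An exact permutation test of 2 against 2 arrays cannot go below p = 0.333 (two-sided). The late mean was at least 1 log2 unit above the early mean for 61 tags and at least 1 below it for 53 tags.

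The change within a phase was next set beside the change between phases. For the median tag, the 2 early arrays differed by 0.13, the 2 late arrays by 0.22, and the phase means by 0.11 on the log2 scale. A mean of 2 arrays varies less than 1 array, so the last value is not a like measure to the first 2. Among the 114 tags whose phase means differed by at least 1, 77 changed at least as much within one of the phases. Both late arrays were above both early arrays for 740 tags (12.2%), and both were below for 915 tags (15.1%). Such a separation, in either direction, has p = 0.333 in an exact permutation test of 2 against 2 arrays. It is thus common in random order, and the 2 counts are a description only. A gap of at least 1 log2 unit separated the phases for 3 of the tags that were higher late and for 4 of those that were lower late.

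**Figure D1:**
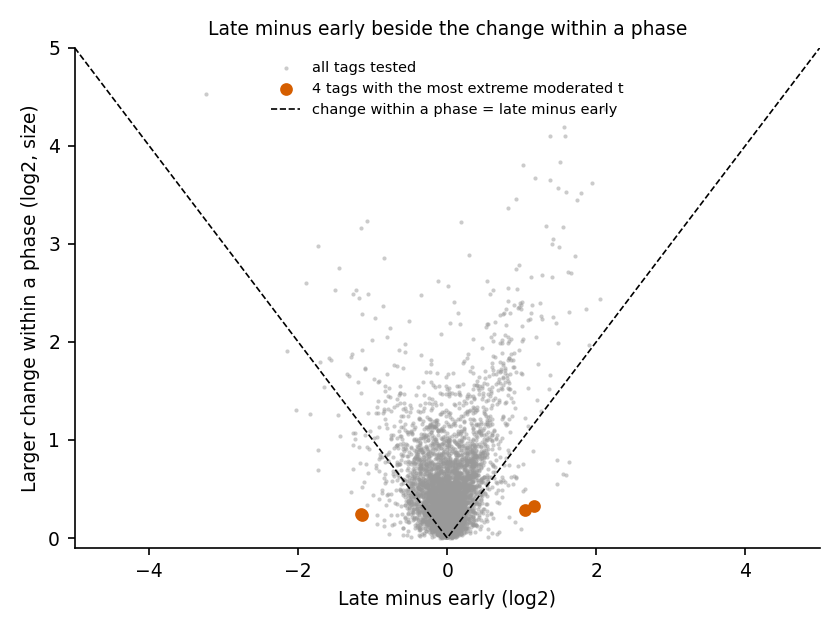
Each grey point is 1 of the 6074 tags tested, with the late minus early difference (log2) on the x axis and the larger of the changes from 15 to 30 min and from 2 h to 5 h (log2, size) on the y axis. The orange points are the 4 tags named in the text, of which the 2 that were lower late lie on top of each other, and points above the dashed line changed more within a phase than between phases.

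The tags with the most extreme moderated t among those with a difference of at least 1 had levels that moved less within a phase than between phases. The moderated t is large where the change within a phase is small, so the choice itself favours this form. The values of these tags are therefore a description. ARAD1C26928g had levels of 10.04 and 10.37 at the early times and of 11.38 and 11.36 at the late times. Both late values lay above both early ones, and the phase means differed by 1.17 ± 0.15 (SE; 2.25-fold, limma adjusted p = 1). All 10 of its probes were higher late. ARAD1C06336g stood at 6.94 and 7.23 early and at 8.19 and 8.05 late. Its probes disagreed on the change from 2 h to 5 h (SD over probes 0.80, with 66.7% of them higher at 5 h). Its phases did not overlap either, with a difference of 1.04 ± 0.16 (SE; 2.05-fold, limma adjusted p = 1).

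The 2 tags on the lower side, chosen in the same way, were of the same form. ARAD1D14828g had a level of 9.32 at both early times, 8.06 at 2 h and 8.29 at 5 h. The late mean was lower by 2.2-fold (log2 difference -1.14 ± 0.13, SE, limma adjusted p = 1). ARAD1C40964g had levels of 7.87, 7.71, 6.51 and 6.75 from the first to the last harvest. The late mean was lower by 2.24-fold (log2 difference -1.16 ± 0.14, SE, limma adjusted p = 1). All probes of both tags were lower late. The step down lay between 30 min and 2 h in both, and both stood 0.23 higher at 5 h than at 2 h.

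The course was next described step by step. With 1 array a time there is no test of a step, and a tag was counted as changed by size when its level differed by 1 log2 unit or more and 80% or more of its probes moved the same way. From 15 to 30 min, 112 tags (1.84%) were higher and 106 (1.75%) lower. Between 30 min and 2 h the counts were 248 higher (4.08%) and 155 lower (2.55%). From 2 h to 5 h, 126 tags (2.07%) were higher and 286 (4.71%) lower. The number of tags counted was thus largest in the 2 steps that involve the 2 h array. Over the whole course, 691 tags changed by size in at least 1 step and 5383 in none. Comparing the first with the last array, 72 tags (1.19%) were higher at 5 h and 93 (1.53%) lower.

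The counts of each step moved with the signal column, the offset and the scaling. With the scanner's processed signal scaled to the 75th percentile of each array, the counts from 2 h to 5 h were 816 higher and 1175 lower. They were 533 and 745 with an offset of 0 and 78 and 351 with median scaling, which also moved the counts from 15 min to 5 h to 50 higher and 119 lower.

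**Figure D2:**
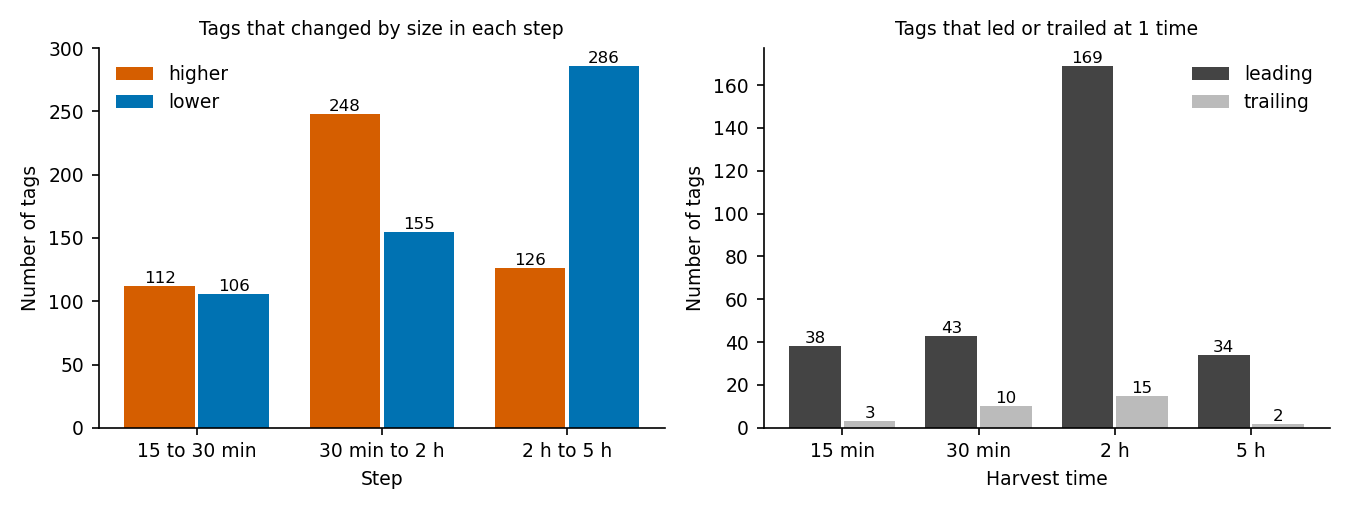
On the left, bars give the number of tags that were at least 1 log2 unit higher (orange) or lower (blue) in each step. On the right, bars give the number of tags that led (dark) or trailed (light) at 1 harvest time by at least 1 log2 unit, with 169 of the 284 leading tags at 2 h.

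Among tags with at least 4 probes, ARAD1B14454g had the largest difference of the first step. It had levels of 12.58, 8.05, 7.05 and 7.11 from the first to the last harvest. Its level at 30 min was 23.2-fold lower than at 15 min (log2 ratio -4.53, SD over probes 0.98), and all 10 probes were lower. By level its rank among all tags was 3 at 15 min and 1550 at 5 h. The second tag on the downward side, ARAD1B23144g, took another course. It had levels of 10.68, 7.79, 9.30 and 9.75, so that it stood 7.4-fold lower at 30 min (log2 ratio -2.89, SD over probes 0.28) and was higher again at both late times.

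On the upward side, ARAD1A02926g had levels of 9.40, 12.63, 9.78 and 10.08. Its level at 30 min was 9.38-fold higher than at 15 min (log2 ratio 3.23, SD over probes 0.24). This high level was found on the 30 min array alone. ARAD1C36256g had levels of 7.18, 10.40, 9.76 and 8.17, a 9.31-fold higher level at 30 min (log2 ratio 3.22, SD over probes 0.88). It was still high at 2 h and lower at 5 h. Its brightest probe differed by less between 15 and 30 min (log2 ratio 1.41).

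In the second step, ARAD1D12606g was higher at 2 h than at 30 min by 17.2-fold (log2 ratio 4.10, SD over probes 1.39). Its levels were 6.71, 7.14, 11.24 and 6.86, so the 2 h value stood alone. The probes of this tag disagreed. Of its 9 probes, 8 were highest at 2 h, whereas the brightest probe lay at 12.97, 12.57, 12.84 and 12.85 and did not follow the others. ARAD1B19822g had levels of 8.04, 7.40, 10.64 and 6.84, and all its probes were higher at 2 h than at 30 min. The 2 h level was 9.45-fold higher (log2 ratio 3.24, SD over probes 0.32).

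On the downward side of the same step were a pair of tags with a peak at 30 min. ARAD1D41162g had levels of 6.71, 9.69, 6.18 and 6.75. Its level at 2 h was 11.4-fold lower than at 30 min (log2 ratio -3.51, SD over probes 0.60), with 80% of its probes well above background at 2 h. With an offset of 0 its log2 ratio was -5.09 and with the processed signal -5.91. ARAD1B07524g, measured by 4 probes, had levels of 9.99, 11.52, 8.14 and 9.94. It was 10.4-fold lower at 2 h than at 30 min (log2 ratio -3.38, SD over probes 0.10) and had almost the same level at 5 h as at 15 min.

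In the third step, the largest differences downward were those of ARAD1D12606g (log2 ratio -4.38, SD over probes 1.51) and ARAD1B19822g (log2 ratio -3.80, SD over probes 0.50). Both had been the largest upward in the step before. The 2 steps share the 2 h array, so they are not independent of each other. On the upward side, ARAD1D08052g had levels of 7.06, 6.22, 6.11 and 10.30. It stood 18.3-fold higher at 5 h than at 2 h (log2 ratio 4.19), but its probes varied widely (SD over probes 2.44), and 50% and 60% of them were well above background at 30 min and 2 h. Its log2 ratio was 5.99 with an offset of 0 and 6.79 with the processed signal. ARAD1B01782g had levels of 8.23, 6.27, 6.58 and 10.68. Its level at 5 h was 17.1-fold higher than at 2 h (log2 ratio 4.10, SD over probes 0.74). It was thus high at the first and the last harvest and low between them.

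To ask which transcripts dominated at each time, a tag was called leading at a time when its level there was at least 1 log2 unit above its second-highest level and at least 80% of its probes were highest there. Of the tags tested, 38 (0.626%) led at 15 min and 43 (0.708%) at 30 min, followed by 169 (2.78%) at 2 h and 34 (0.56%) at 5 h. The 2 h harvest thus had more leading tags than any other time, as it did with a lead of 2 (26 tags). Without a margin the order was another one, since 1422, 1252, 1698 and 1702 tags were highest at the 4 harvests in turn. The lowest level by any margin lay at 2 h for 2410 tags, against 1003 to 1414 at the other times. Under an offset of 0, 406 tags led at 2 h, and with the processed signal 535. In both settings 2 h still had the most leading tags.

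Tags leading at 15 min had median levels of 8.99, 7.24, 6.96 and 7.13 over the course. Those leading at 30 min had medians of 6.98, 8.79, 6.92 and 7.04. The group leading at 2 h had medians of 6.69, 6.75, 8.39 and 6.60. The group leading at 5 h had medians of 6.97, 6.79, 6.83 and 9.03. In each group the medians at the other 3 times lay close together. The levels chose the groups and the medians are therefore a description. The margin itself was not used beyond its threshold, and its median in the same order of groups was 1.29, 1.45, 1.42 and 1.76. A lead of at least 2 was reached by 5, 10, 26 and 13 tags.

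The tags with the largest leads are given next. At 15 min the largest lead was that of ARAD1B14454g (4.53), followed by ARAD1C45672g, which had levels of 9.68, 7.08, 6.70 and 6.26 and a lead of 2.60. At 30 min it was ARAD1D41162g (2.95) and then ARAD1C26246g, with levels of 6.24, 8.99, 6.13 and 6.21 and a lead of 2.76. The order of these 2 tags was reversed with an offset of 0 (3.76 and 4.19) and with the processed signal (4.3 and 4.7). It was also reversed with the authors' table of log2 values and with the brightest probe, but not with median scaling or the mean of the probes. Only 30% of the probes of ARAD1C26246g were well above background at 5 h, and 100% at 30 min. At 2 h ARAD1D12606g led by 4.10, and ARAD1D20922g, with levels of 6.97, 7.74, 10.82 and 7.37, by 3.08. At 5 h ARAD1D05368g led by 3.52, by 5.2 with an offset of 0 and by 5.98 with the processed signal. It had levels of 6.13, 6.10, 6.15 and 9.67, with 50% to 60% of its probes well above background before 5 h and all of them at 5 h. ARAD1D12804g had levels of 7.99, 7.48, 7.86 and 11.48 and led at 5 h by 3.50. All 10 probes of each of these 5 h tags were highest at 5 h, and the first 3 harvests differed little from one another.

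**Figure D3:**
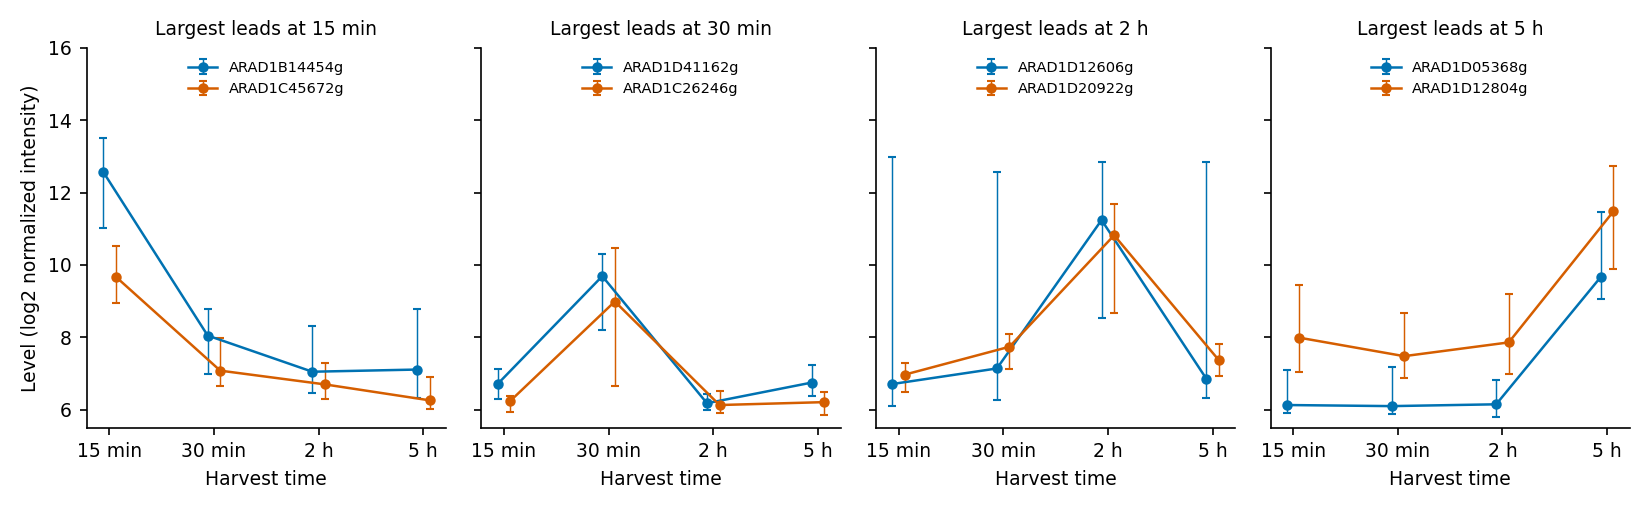
Levels (log2 normalised intensity) at the 4 harvest times are shown for the 2 tags with the largest lead at each time. Points are medians over the probes of a tag on 1 array and bars run from its lowest to its highest probe, so they show the spread between probes, not between cultures. The bars of ARAD1D12606g are long because its brightest probe stayed between 12.57 and 12.97.

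Trailing tags, which were lowest at 1 time by the same margin, were fewer. In the order of harvest they numbered 3, 10, 15 and 2. The 15 tags trailing at 2 h had median levels of 9.21, 9.08, 7.44 and 8.78. The 10 tags trailing at 30 min had medians of 8.76, 6.98, 8.93 and 8.70. An example of the latter is ARAD1B09856g, chosen after its values were seen, with levels of 9.08, 6.34, 8.94 and 8.32.

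Some tags moved in 1 direction throughout. The level was higher at every later harvest for 149 tags and lower at every later harvest for 160 tags, and the change from 15 min to 5 h reached 1 log2 unit for 11 and 21 of them. The following tags were chosen after their values were seen, as the largest of these with at least 4 probes. ARAD1B23760g had levels of 6.50, 6.81, 7.49 and 9.93, and ARAD1D05984g had levels of 7.16, 7.94, 8.98 and 9.38. Most of the difference lay between 2 h and 5 h in the first and before 2 h in the second. ARAD1D18788g had levels of 10.05, 8.14, 7.77 and 6.13, with 50% of its probes well above background at 5 h. ARAD1C45672g, for which most of the difference lay between 15 and 30 min, ended 10.7-fold below its first level (log2 ratio -3.43, SD over probes 0.36).

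Where the leading tags lie was not used to choose them. The probes of a tag did enter the choice, since at least 80% of them had to be highest at the leading time. Of the 169 tags leading at 2 h, 20 lie on chromosome A, 27 on B, 52 on C and 70 on D, while these chromosomes hold 14%, 17.1%, 32.4% and 35.4% of all tags tested. At 5 h, 10 of the 34 leading tags lie on chromosome A and 16 on D. The last probe started at a median of 1118, 1072, 1153 and 1008 bases along the tag in the groups leading from the first to the last harvest, against 1103 in all tags. Fewer than 10 probes measured 29.4% of the tags leading at 5 h, and 22.7% of all tags tested.

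Some leading tags were neighbours in the order of the tags analysed here. A tag leading at the same time stood directly beside 6 of the 38 tags leading at 15 min (15.8%), 4 of the 43 at 30 min (9.3%), 13 of the 169 at 2 h (7.69%) and 9 of the 34 at 5 h (26.5%). Over all tags, such a neighbour was present for 1.2%, 1.42%, 5.45% and 1.09%. Neighbours in tag order may lie on either strand, and the strand is not given in the files.

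Runs of 3 leading neighbours occurred 4 times, and the peaks within each run differed in height. The run ARAD1C45672g, ARAD1C45694g and ARAD1C45738g led at 15 min with levels of 9.68, 8.06 and 7.81. By tag number ARAD1C45716g, which was not analysed here, lies between the last 2 of them. The levels at 5 h were 6.26, 6.31 and 6.76. Also leading at 15 min were ARAD1D25102g, ARAD1D25124g and ARAD1D25146g, with levels of 11.34, 9.11 and 10.13. All members of this second run were at their lowest at 2 h (8.43, 6.82 and 7.43) and somewhat higher at 5 h (8.88, 7.49 and 7.97).

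At 2 h the run consisted of ARAD1D12584g, ARAD1D12606g and ARAD1D12628g, with levels of 8.71, 11.24 and 8.29. ARAD1D12584g had levels of 6.05 at 15 min, 5.91 at 30 min and 6.05 at 5 h, and at 5 h none of its probes was well above background. Its level at 2 h was therefore at least 6.32-fold higher than at 5 h, computed against the higher of its own level and the lowest level of any probe well above background on that array. At 5 h the run was ARAD1D25542g, ARAD1D25564g and ARAD1D25586g, with levels of 8.70, 7.85 and 9.11 there and of 6.93, 6.52 and 7.06 at 2 h. The brightest probe of ARAD1D25586g did not follow its median. It lay at 11.19, 10.21, 9.15 and 9.93 from the first to the last harvest and was thus highest at 15 min.

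Only part of the brightest tags stayed the same over the course. The brightest 1% of tags numbered 62 on each array, and 125 tags were in this set at any time. Of these, 21 were in it at all 4 harvests, 19 at 3, 22 at 2 and 63 at 1 harvest only. The sets seen at 1 harvest only held 16, 12, 20 and 15 tags in the order of harvest. The 62 brightest tags held 21.8%, 22.4%, 18.2% and 24.2% of the summed background-corrected signal from the first to the last harvest. The 10 brightest held 8.36%, 8.47%, 6.71% and 9.71%. The signal was thus least concentrated at 2 h and most concentrated at 5 h, the arrays with the highest and the lowest share of spots well above background.

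The brightest tag with at least 4 probes at 15 min, 2 h and 5 h was ARAD1D14080g, with levels of 12.93, 12.30, 13.28 and 13.73. Its share of the summed signal was 1.17%, 0.785%, 1.07% and 2.59%, so it was highest at 5 h. Its 10 probes spanned 9.83 to 15.22 at 15 min, and 3 of them carry a suffix X whose meaning is not stated. Of the tags with at least 4 probes, ARAD1B08998g was second at 5 h and lay between 11.92 and 12.59 throughout. Its probes disagreed on the change from 2 h to 5 h, with 30% of them higher and 50% lower. Its brightest probe lay at 13.92 at both times. ARAD1C28314g had levels of 12.81, 12.16, 12.59 and 11.44, was second at 15 min and ranked 15 at 5 h.

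Among tags with at least 4 probes, the brightest at 30 min was ARAD1A02926g, described above, followed by ARAD1D23232g, which lay between 11.92 and 12.46 at all times. At 2 h the second place among these tags was taken by ARAD1C35398g, with levels of 9.72, 10.60, 12.96 and 10.65. Of the 6 tags with at least 4 probes named here, ARAD1A02926g and ARAD1C35398g were in front through a peak at a single harvest, while the other 4 were bright at all harvests. Tags with fewer probes were bright as well. ARAD1B16544g (3 probes) ranked 4, 2, 3 and 4 by level from the first to the last harvest. ARAD1D15642g (2 probes) held 1.7% of the summed signal at 30 min, against 0.992% for ARAD1A02926g, and 1.42% at 5 h. By level, however, ARAD1D15642g ranked 5 at 30 min and ARAD1A02926g ranked 1. The share is taken from the signal before logs.

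**Figure D4:**
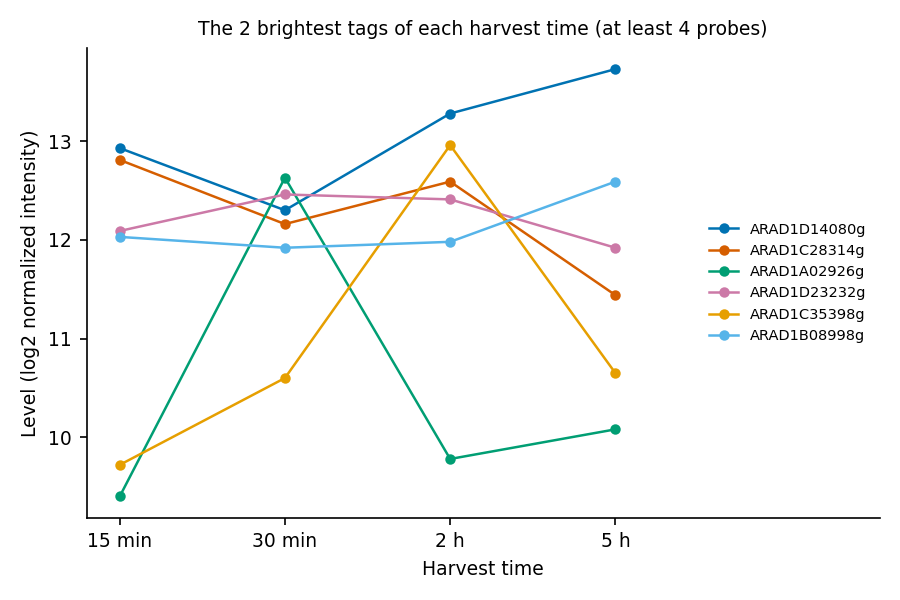
Lines join the levels (log2 normalised intensity, 1 array a time) of the 6 tags that were among the 2 brightest at any harvest time, counting tags with at least 4 probes. ARAD1D14080g reaches 13.73 at 5 h, ARAD1A02926g peaks at 12.63 at 30 min and ARAD1C35398g at 12.96 at 2 h.

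The study's text names 10 tags as known, probable or candidate genes of aromatic acid breakdown, and they were examined here in the absence of gallic acid. Yeasts that use such acids hydroxylate or decarboxylate them to catechol or related diols and triols, and an intradiol dioxygenase then opens the ring between the hydroxyl groups. ARAD1C45716g (AGDC1), the gallic acid decarboxylase, was not analysed here. Of the other 9 tags, 8 were tested, and none passed the test of late against early. Their median difference was -0.03 (log2), with 3 tags higher and 5 lower late, against a median of 0.00 over all tags. By size, 2 of the 8 (ARAD1D18458g and ARAD1C03498g) changed in at least 1 step (25%), against 11.4% of all tags tested.

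ARAD1D18458g (ACDO1), the catechol-1,2-dioxygenase that opens the ring, had levels of 6.24, 6.60, 7.15 and 6.13 from the first to the last harvest. None of its probes was well above background at 5 h and all were at 30 min and 2 h. The 2 h level was at least 2.03-fold higher than the 5 h level, and the 5 h array had the fewest spots above background of the 4. Late minus early was 0.22 ± 0.42 (SE, limma adjusted p = 1). The probe names place the starts of its probes between 815 and 1618, and the last of these exceed the length of the open reading frame in the study, so part of the probes may not measure that gene.

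Among the hydroxylases, which add the hydroxyl groups, ARAD1C03498g was the one with a peak. It had levels of 6.82, 6.82, 8.65 and 6.97 and led at 2 h by 1.68. The 2 h level was 3.56-fold higher than at 30 min and 3.2-fold higher than at 5 h. Late minus early was 0.99 ± 0.64 (SE, limma adjusted p = 1), since the late arrays differed by more than the phases.

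ARAD1D18502g, the phenol hydroxylase, had levels of 8.24, 8.75, 8.21 and 8.73, which moved up and down by about the same size. Late minus early was -0.02 ± 0.29 (SE, limma adjusted p = 1), with 6 probes that all start within the first 421 bases. ARAD1D27984g had levels of 8.00, 7.98, 7.23 and 8.12, lower at 2 h than at the other 3 times. ARAD1D18392g had levels of 7.32, 6.89, 6.67 and 6.76, with both late values below both early ones and a difference of -0.39 ± 0.19 (SE, limma adjusted p = 1).

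For the other 4 candidate hydroxylases, most probes were not well above background at any time. ARAD1C00330g, ARAD1C08558g and ARAD1A17402g all lay between 5.84 and 6.04, and never had more than 30% of probes above background. The brightest probe of ARAD1C08558g was higher, at 6.81 to 7.45 over the 4 arrays. ARAD1C08580g, with 3 probes, lay between 5.95 and 6.02, was not well above background on any array and was not tested. No change past the test was detectable for the 3 tags tested, whose late minus early was 0.84 for ARAD1C08558g, -0.57 for ARAD1C00330g and -0.77 for ARAD1A17402g with the processed signal.

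**Figure D5:**
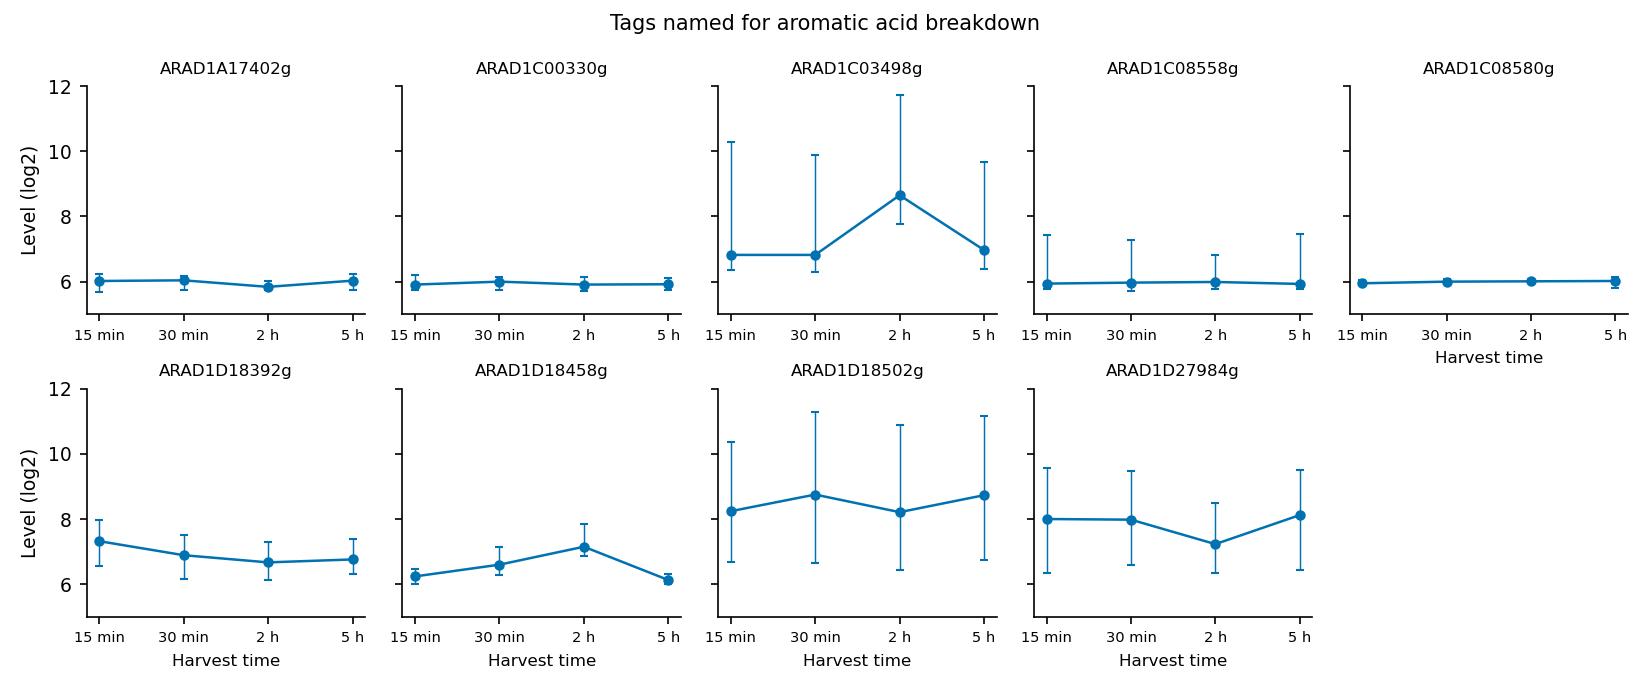
Levels (log2) of the 9 tags named for aromatic acid breakdown are shown at the 4 harvest times, as medians over probes with bars from the lowest to the highest probe of the tag. ARAD1C03498g peaks at 8.65 at 2 h, and 4 tags stay near 6 throughout.

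Tags with the prefix ARAD1M, taken here as putative mitochondrial transcripts from the prefix alone, moved little. Of 36 such tags, 35 were tested. Their median levels over the course were 7.01, 7.26, 7.17 and 7.01, and their median late minus early was -0.02 (15 higher, 20 lower). None changed by size in any step and none led at any time, against 11.4% and 4.68% of all tags tested. At 30 min, 31 of the 35 stood higher than at 15 min, by a median of 0.10, while 3112 of all 6074 tags did so.

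Single tags of this group had small differences. ARAD1M90360g had levels of 8.07, 8.16, 8.33 and 8.38, with a late minus early of 0.24 ± 0.10 (SE, limma adjusted p = 1). ARAD1M90200g had levels of 6.52, 6.71, 6.54 and 6.93. On the lower side, ARAD1M90110g had levels of 8.33, 8.71, 8.08 and 8.70, and ARAD1M90310g had levels of 6.26, 6.19, 6.21 and 6.04. The brightest probe of ARAD1M90200g lay at 11.09, 10.93, 11.39 and 11.16. That of ARAD1M90110g lay at 12.74, 12.37, 12.81 and 12.47. In both tags the brightest probe moved against the median in each step. The difference of ARAD1M90110g was -0.13 ± 0.29 (SE, limma adjusted p = 1), smaller than the changes within its phases.

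The nuclear chromosomes were described by the same counts. The median late minus early was 0.00 for the tags of each of chromosomes A, B, C and D. At least 1 step changed by size for 9.53% of 850 tags on A, 11.6% of 1039 on B, 10.6% of 1968 on C and 13% of 2150 on D. Leading tags made up 4.47%, 4.23%, 3.91% and 5.81%. The 31 tags with the prefix ARAD1X, whose meaning is not stated in the sources used here, had no tag that changed by size.

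The first and last 10 tags of each chromosome in tag order made a list of 80 tags, of which 76 were tested. Their median levels were low, at 6.08, 6.13, 6.12 and 6.08, against 6.47 to 6.48 over all tags. Late minus early had a median of -0.03, with 31 tags higher and 45 lower, and 9.21% changed by size in at least 1 step, against 11.4% of all tags. The 3 that led at any time (3.95%, against 4.68% of all tags) all did so at 15 min.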

How the data were processed

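Total RNA was labelled with Cy3 and hybridised to one-colour Agilent arrays. The authors deposited the scanner output, with intensity values per spot extracted with Agilent Feature Extraction 11.5.1.1, and flags of 0 or 1 (deposited as other values, with no unit). A table of log2 values that the authors had background-corrected and quantile-normalised in limma served as an alternative (its offset is not given in the sources used here). Among the 62976 features of an array were 1439 control spots, and the rest carried 56312 yeast probes.

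Here, the median spot signal was corrected with its median local background in R 4.3.3 with limma 3.58.1 (normexp, offset 50). Control spots were removed, the 4 glucose arrays alone were quantile-normalised, and log2 values were averaged over the spots of a probe, without spots marked as outliers (0 to 5 per array). The offset makes ratios of dim tags smaller. Late against early was fitted with limma (2 residual degrees of freedom) and adjusted by Benjamini-Hochberg over 6074 tags. An SE is that of the fit, and an SD over probes is the spread of the log2 ratio between the probes of a tag. The code was tested on simulated data.

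Tags named are, of those with at least 4 probes, the 2 most extreme in each direction of the test and of each step, the 2 with the largest lead and the 2 brightest at each time, the tags with a stated function, and the 2 most extreme ARAD1M tags in each direction. The members and lists were chosen with earlier results of these data known. Lists that need gene products were not analysed here. Alternatives were another signal column, offset, scaling, summary of probes, filter and prior, larger size thresholds, the authors' table, leaving out each array, and, chosen after seeing the data, leaving out probes with the suffix X.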

Additional observations from a re-analysis of the deposited data

How the results depend on the processing

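Late against early gave 0 tags under every alternative run with limma, with 132 to 183 tags at an unadjusted p of 0.05. Leaving out 1 array gave 0 tags as well, with 176 (without 15 min), 181 (without 30 min), 278 (without 2 h) and 909 tags (without 5 h) at an unadjusted p of 0.05 and a lowest adjusted p of 0.24 without 5 h, where the lone late array is assumed to vary like the early ones. No paired analysis was possible because each replicate number stands for another harvest time.

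Counts by size moved with the signal column, offset, scaling, probe summary and threshold, and the cause was not tested. Counts are given as higher and lower for 15 to 30 min, 30 min to 2 h, 2 h to 5 h and 15 min to 5 h. With the processed signal scaled to the 75th percentile they were 466 and 430, 870 and 700, 816 and 1175, and 382 and 704, with 138, 128, 535 and 71 tags leading from the first to the last time. With offset 0 they were 289 and 273, 647 and 449, 533 and 745, and 225 and 274, with 93, 106, 406 and 58 leading. Median scaling left 78 higher from 2 h to 5 h. The authors' table gave 178 and 174, 425 and 270, 270 and 481, and 133 and 164, with 63, 76 and 281 leading at the first 3 times. The brightest probe of each tag gave 226 and 212, 403 and 322, 318 and 471, and 131 and 219, with 72 and 77 leading at 15 and 30 min. A log2 ratio of 2 left 14 and 14, 39 and 20, 19 and 59, and 18 and 16, and a lead of 2 left 5, 10, 26 and 13 leading, so that 2 h no longer had more than the other times together. The median of all tags moved by over 0.1 in the last 2 steps with offset 0 (-0.11 and 0.15) and with the brightest probe (-0.15 and 0.16), and from 2 h to 5 h with median scaling (0.12), and counts are not corrected for it. The largest named difference also changed, since ARAD1D08052g from 2 h to 5 h passed ARAD1B14454g from 15 to 30 min with offset 0 (5.99 and -4.83), the processed signal (6.79 and -4.88), the authors' table (5.09 and -4.71) and the brightest probe (6.36 and -5.10).

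Late minus early of a few named tags changed sign, in no case with a call. ARAD1D18502g was 0.02 with the processed signal, 0.00 with median scaling, 0.09 with the mean of the probes and 0.22 with the brightest. ARAD1C08558g was -0.03 with median scaling, 0.00 with the mean and -0.23 with the brightest probe. The brightest probe gave -0.07 for ARAD1D18458g, 0.04 for ARAD1A17402g, 0.08 for ARAD1M90110g and 0.03 for ARAD1M90310g, and for ARAD1D12606g a difference of 0.00 from 2 h to 5 h and a lead at 2 h of -0.13. Leaving out 1 array also turned ARAD1C08558g (-0.01 without 15 min, -0.02 without 2 h), ARAD1D18502g (0.23 without 30 min, 0.25 without 2 h), ARAD1M90110g (0.06 without 30 min, 0.19 without 2 h), ARAD1D18458g (-0.26 without 2 h), ARAD1D27984g (0.14 without 2 h) and ARAD1M90200g (-0.08 without 5 h).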
